A study of Mus musculus with 12 samples.

Results

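The comparison concerned whole-cell RNA of mouse embryonic stem cells that had received an siRNA against Lsg1, set against whole-cell RNA of cells that had received a scramble siRNA. It set against each other 6 of the 12 libraries of the series, 3 with each siRNA, taken by the siRNA and fraction in their labels. It covered the 17702 genes of 55416 listed whose counts passed a filter on low values. That filter and the spread used in the main test drew on all 12 libraries. The cells of both groups were the E14Tg2a.4 line, grown with serum and leukemia inhibitory factor, engineered so that Rpl31, a protein of the large ribosomal subunit, carries a FLAG epitope, a TEV protease site and an AviTag (Rpl31-FTA). The labels of all 6 libraries also name the endoplasmic reticulum (ER), to which ALIBi, a split system that biotinylates nearby tagged ribosomes, was directed, so the controls carried the tag and the label as well. Whole-cell RNA came from an aliquot of lysate set aside before labelled ribosomes were purified, and the other 6 libraries hold the RNA of ribosomes purified from such lysates. The replicates are labelled biological, with no word on separate cultures or days, so the p-values measure the spread between these libraries. Neither the siRNA sequences nor their dose and duration are printed, since the labels at hand do not state them.

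Lsg1 is a GTPase of the cytoplasm. New 60S ribosomal subunits leave the nucleus bound to the export adaptor Nmd3, and Lsg1 releases Nmd3 at one of the last steps before the subunit can translate. Defects in ribosome assembly can free ribosomal proteins that bind Mdm2 and so stabilise the transcription factor p53, which is one reason why p53 targets are commonly examined when an assembly factor is lowered.

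The 6 libraries held 38092178 to 56522114 reads in genes. Levels are given as CPM, counts scaled to a common library total after correction by TMM, a method that sets the bulk of genes equal between libraries. Of 11 stem cell markers, Pou5f1 lay between 1436 and 1536 CPM and Nanog between 629 and 716 CPM, and the summed level was 8893 to 8991 CPM with scramble and 8844 to 8973 CPM with Lsg1 siRNA. Summed markers of primitive endoderm (7 genes) were 11.1 to 11.7 against 10.8 to 11.2 CPM, of primed or early lineage cells (8) 49.8 to 52.8 against 47.7 to 52.2, of trophoblast (5) 3.35 to 4.23 against 3.64 to 4.06, and of fibroblasts or feeder cells (8) 28.6 to 31.3 against 28.0 to 30.3, where Thy1 made up 19.6 to 22.5 CPM and Lum was 0 in all 6. The 5 markers of 2-cell-like cells summed to 7.68 to 8.56 CPM with scramble and 8.54 to 9.69 CPM with Lsg1 siRNA, with Tcstv1 at 0 in all. In bulk RNA, fewer cells of a type and less RNA per cell cannot be told apart. One library stood apart, Lsg1 replicate 3, in which the unnamed gene ENSMUSG00000119584.1 reached 15604 CPM against 2224 to 4143 in the other 5, and 5.26% of its reads fell in no feature against 4.10% to 4.40%. For some gene lists the values without this library are also given, with scramble replicate 3 kept. These are lists whose count or median this library moved by over 1.5 times, or whose median changed sign without it. The p53, 2-cell-like and immediate early lists did not meet that rule, and their values without it are given as well. Over all genes the median log2 fold was 0.0020 with Lsg1 replicate 3 and -0.0059 without it, with 8420 of 18074 genes then positive.

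Lsg1 mRNA was lower in every library of the siRNA group than in any control library. It stood at 136, 144 and 149 CPM in the 3 scramble libraries and at 83.5, 96.7 and 114 CPM in the 3 Lsg1 siRNA libraries. The groups did not overlap, and replicate 3, the library that stood apart, kept the most Lsg1. The level was 98.0 ± 15.1 CPM (SD, n = 3) against 143 ± 6.38 CPM, 68.5% of the control level, and the log2 fold was -0.55 (SE 0.10, 95% interval -0.76 to -0.33). By edgeR's quasi-likelihood test, adjusted by Benjamini-Hochberg over all genes, Lsg1 did not pass the threshold of 0.05 (adjusted p = 0.245). The spread in that test was estimated from the whole-cell and the ER-bound libraries together. It passed when the spread was estimated from the 6 whole-cell libraries alone (edgeR adjusted p = 0.0016). In the fit that includes the ER-bound libraries, each of the 6 whole-cell libraries was also left out in turn. The edgeR adjusted p of Lsg1 then lay between 0.0556 and 0.9998.

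The other 16 genes of the list named for late 60S maturation in the cytoplasm stayed close to their control levels. Their log2 folds ran from -0.043 to 0.046. Of the list's 17 genes, 10 had a positive log2 fold, against 51.1% of all genes tested, and the median was 0.010 against 0.0020 over all genes; without replicate 3, 6 of 17 were positive and the median was -0.014. Nmd3, the adaptor that Lsg1 releases, stood at 170, 173 and 178 CPM with scramble and 174, 176 and 174 CPM with Lsg1 siRNA. Eif6, which keeps the new 60S subunit from joining the 40S, was at 232, 238 and 249 against 226, 244 and 258 CPM. Sbds, which with the GTPase Efl1 removes Eif6, was at 92.0, 90.3 and 92.6 against 91.8, 94.9 and 96.9 CPM, and Efl1 at 51.5, 52.8 and 54.8 against 50.8, 52.8 and 53.3 CPM. Groups overlapped for all of these. The export receptor Xpo1, the AAA ATPase Spata5, Cinp, Rsl24d1, Mrto4, Bccip, Heatr3, Tma16, Dusp12 and Pa2g4 also overlapped between groups, as did the 60S factor Zfp622 (129, 130 and 136 against 129, 136 and 143 CPM). Beside Lsg1, Dnajc21, a J-domain protein that acts on the 60S subunit, was the only member whose groups lay apart, at 200, 197 and 196 against 190, 193 and 192 CPM (log2 fold -0.043, SE 0.027). Several of these folds are so small that they change sign when 1 library is left out.

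**Figure D1:**
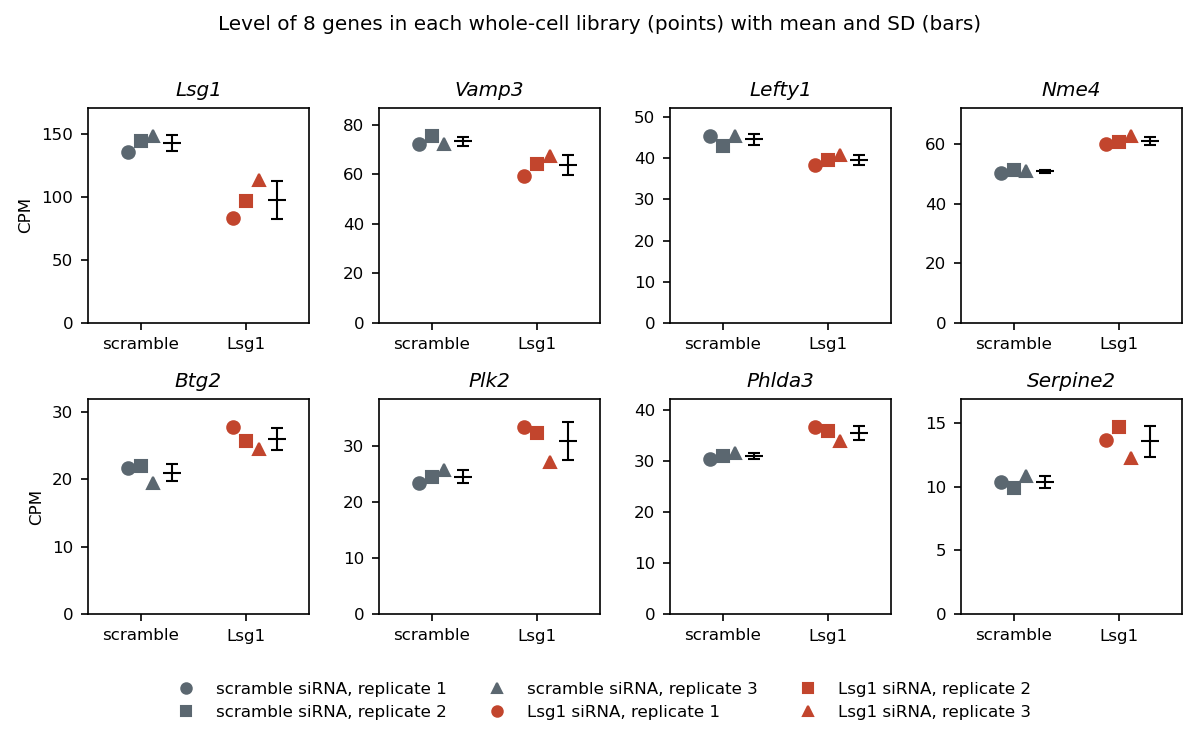
Level of 8 genes in CPM (vertical axes, from 0) in the 3 scramble and the 3 Lsg1 siRNA libraries of whole-cell RNA; points are libraries, and the bar beside them is the mean with its SD. Lsg1, Vamp3 and Lefty1 lie lower and Nme4, Btg2, Plk2, Phlda3 and Serpine2 higher with Lsg1 siRNA, with no overlap between groups.

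Across the transcriptome the differences were small, and no gene passed the test. Of the 17702 genes, edgeR's quasi-likelihood test called 0 higher and 0 lower (0% in each direction). At an unadjusted p under 0.05, 385 genes were higher (2.17%) and 346 lower (1.95%). All 3 Lsg1 libraries lay above all 3 scramble libraries for 926 genes (5.23%) and below them for 917 (5.18%). Among the 10590 genes whose higher group averaged 5 CPM or more, the median size of the log2 fold was 0.029 and the 95th percentile 0.11, and for 10581 of them (99.9%) the 95% interval lay wholly within a 1.5-fold change in either direction. DESeq2 on the same counts called 5 genes, Nme4, Btg2, Serpine2 and Plk2 higher and Vamp3 lower, and did not call Lsg1 (adjusted p = 0.567). The edgeR fit of the 6 whole-cell libraries alone called 2 of 16915 genes (0.0118%), Nme4 higher and Lsg1 lower.

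**Figure D2:**
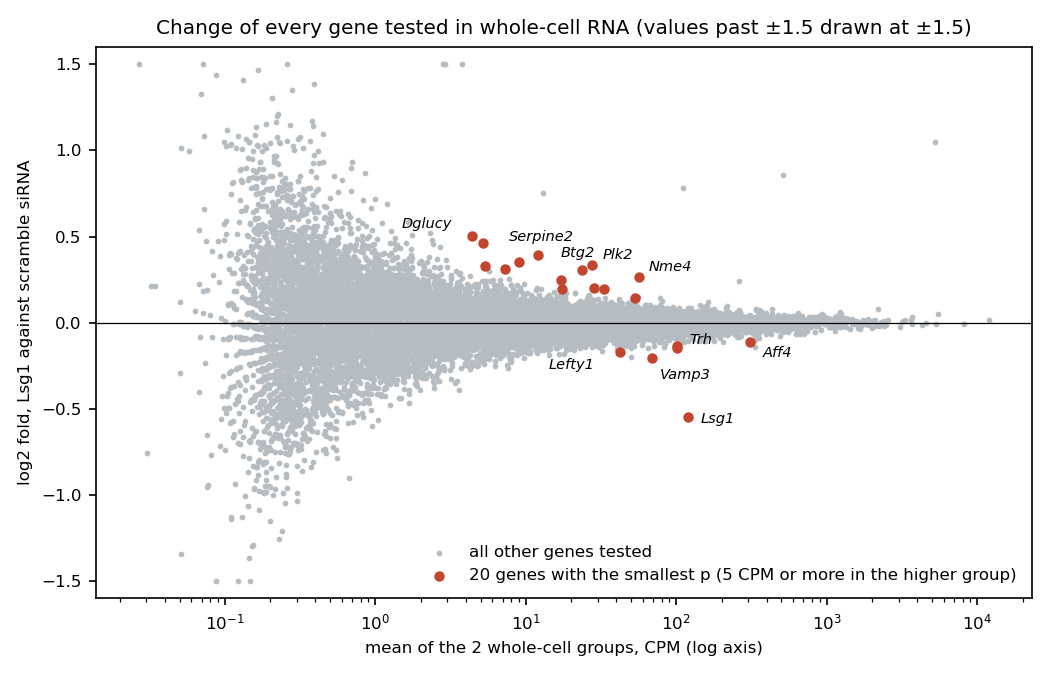
Log2 fold of Lsg1 against scramble siRNA in whole-cell RNA (vertical axis) against the mean level of both groups in CPM (horizontal log axis) for all 17702 genes tested; red points are the 20 genes of at least 5 CPM with the smallest p. Lsg1 has a log2 fold of -0.55, and 95% of the genes of at least 5 CPM lie within 0.11 of 0.

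The 20 genes of at least 5 CPM with the smallest p all missed the threshold in the edgeR test, with adjusted p from 0.221 upward; 14 had a positive and 6 a negative log2 fold. Nme4, a nucleoside diphosphate kinase of mitochondria, had the smallest p of all. It stood at 50.4, 51.5 and 51.0 CPM with scramble and at 60.2, 60.9 and 62.8 CPM with Lsg1 siRNA, 120% of the control level (log2 fold 0.27, SE 0.044, adjusted p = 0.221). Replicates within each group differed far less than the groups did. Serpine2, a secreted inhibitor of serine proteases, was at 10.4, 9.93 and 10.8 against 13.7, 14.7 and 12.3 CPM (log2 fold 0.39, SE 0.071). Taf7l, a germ-cell relative of the TFIID subunit Taf7, was at 4.57, 4.39 and 4.11 against 6.71, 5.82 and 5.50 CPM, 138% of control. Ccn1, a matricellular protein and immediate early gene, was at 16.1, 14.5 and 16.1 against 19.1, 18.5 and 18.1 CPM. For each of these genes the groups did not overlap.

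Further genes on the positive side of these 20 were Ephx1, the microsomal epoxide hydrolase, at 8.85, 7.14 and 7.70 against 10.9, 9.75 and 9.48 CPM, and Dglucy, the D-glutamate cyclase of mitochondria, at 3.69, 3.96 and 3.37 against 5.30, 5.83 and 4.36 CPM. Dglucy had the largest log2 fold of the 20 in the positive direction, 0.50 (SE 0.12). The small GTPase Rap2b (26.5 against 30.5 CPM on average), the nuclear envelope protein Tmem43 (16.2 against 18.5), the replication-linked protease Fam111a (50.3 against 55.6) and Nlrp4f (6.48 against 8.06) had log2 folds of 0.15 to 0.31.

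On the negative side, Vamp3, a SNARE protein of recycling endosomes, stood at 72.4, 75.4 and 72.2 CPM with scramble and at 59.3, 64.1 and 67.4 CPM with Lsg1 siRNA, 86.7% of control (log2 fold -0.20, SE 0.042, edgeR adjusted p = 0.445). Lefty1, a secreted antagonist of Nodal, was at 45.4, 43.0 and 45.4 against 38.5, 39.6 and 40.8 CPM. The thyrotropin-releasing hormone precursor Trh was at 103, 103 and 111 against 93.3, 94.7 and 99.0 CPM. The Src-family kinase Yes1 was at 108, 105 and 104 against 101, 94.9 and 92.6 CPM, and Aff4, the scaffold of the super elongation complex, at 318, 317 and 329 against 297, 294 and 299 CPM. The groups of these last 4 genes lay apart by small margins, with log2 folds of -0.17 to -0.11. Among the 19 genes other than Lsg1, replicate 3, the library with the most Lsg1 left, had the smallest shift from the scramble mean for 16, against 400 of the 1132 genes of at least 5 CPM whose groups lay apart. Replicate 3 was also the library that stood apart, so the level of Lsg1 and other traits of that library cannot be told apart. Whether either bears on this count was not tested.

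p53 targets held 4 of these 20 genes, Btg2, Plk2, Phlda3 and Ddit4l. p53 binds DNA as a tetramer at pairs of a 10-base half-site, and it induces genes of cell cycle arrest, apoptosis, DNA repair and its own inhibition. To show matches to the half-site in such genes, the stretches below were taken from RefSeq promoters of mouse build GRCm38.p6. Each runs 5′ to 3′ on the gene's strand and lies upstream of the start, with matches to the p53 half-site consensus in capitals. Cdkn1a held 2 matches, and Ddit4l, Ccng1 and Mdm2 held 1 each, which is not a pair. Whether p53 binds at any of them was not tested. Ddit4l was among the 20 genes, Cdkn1a and Ccng1 encode well-known p53 effectors, and Mdm2 encodes the ubiquitin ligase that degrades p53.
Ddit4l: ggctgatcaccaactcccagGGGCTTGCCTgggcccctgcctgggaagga
Cdkn1a: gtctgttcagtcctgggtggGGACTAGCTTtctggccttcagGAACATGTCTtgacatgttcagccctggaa
Ccng1: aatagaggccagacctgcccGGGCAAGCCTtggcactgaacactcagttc
Mdm2: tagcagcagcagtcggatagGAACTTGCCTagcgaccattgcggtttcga

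These stretches lie at chr3:137623562-137623611 on the plus strand (Ddit4l), chr17:29090886-29090957 on the plus strand (Cdkn1a), chr11:40755442-40755491 on the minus strand (Ccng1) and chr10:117710915-117710964 on the minus strand (Mdm2). The half-site was searched by its consensus on both strands, which read alike because the consensus is its own reverse complement, in windows from 250 bases before to 50 bases after a start. It was present in 13 of 45 promoters (28.9%) of the 31 p53 targets that had an entry, and in 2745 of all 32851 promoters (8.36%). The 12 targets with a match had a median log2 fold of 0.067 in whole-cell RNA and the 19 without one a median of 0.095; the difference was not tested. Btg2, Plk2 and Phlda3 had no match in this window.

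Of the 39 p53 targets tested, 36 had a positive log2 fold and 3 (Tigar, Zmat3 and Ei24) a negative one, against 51.1% positive over all genes, and the median log2 fold was 0.078 against 0.0020. No member passed the edgeR test over all genes. At an unadjusted p under 0.05, 13 members (33.3%) were higher and 0 lower, and for 13 (33.3%) all Lsg1 libraries lay above all scramble libraries, against 5.23% of all genes. The list was assembled with earlier results of these data known. Its median deviation from the scramble mean was 0.016, -0.0089 and -0.00074 in the 3 scramble libraries and 0.11, 0.079 and 0.053 in the 3 Lsg1 libraries, the lowest being replicate 3. Without replicate 3, 34 of 39 members were positive and the median was 0.085.

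The p53 targets with the smallest p included genes that restrain proliferation and growth signalling. The largest log2 fold was that of Fas (0.36, SE 0.41), at a mean of 0.18 CPM with scramble. Cgref1 had one of 0.27 (SE 0.11), and the groups overlapped for both. Btg2, an antiproliferative cofactor of mRNA deadenylation, stood at 21.6, 21.9 and 19.5 CPM with scramble and at 27.7, 25.7 and 24.5 CPM with Lsg1 siRNA (log2 fold 0.31, SE 0.055, edgeR adjusted p = 0.221). The polo-like kinase Plk2 was at 23.3, 24.4 and 25.7 against 33.3, 32.3 and 27.0 CPM, with replicate 3 close to the control range. Phlda3, which keeps Akt off the membrane, was at 30.4, 30.9 and 31.6 against 36.6, 35.8 and 34.0 CPM, and the mTORC1 inhibitor Ddit4l at 4.68, 4.66 and 4.94 against 6.35, 5.98 and 5.66 CPM. Smaller shifts with no overlap between groups were found for the nuclease Aen (117, 118 and 120 against 125, 127 and 125 CPM), the adenylate kinase Ak1 (42.7, 40.2 and 42.1 against 46.0, 45.7 and 43.6 CPM), the lipase Abhd4 (39.6, 40.8 and 39.0 against 44.5, 43.0 and 42.0 CPM) and the TNF receptor family member Eda2r (30.8, 32.7 and 32.0 against 37.6, 33.7 and 34.5 CPM). The junction protein Perp stood at 25.8, 24.5 and 24.7 against 28.7, 28.4 and 26.6 CPM.

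Of the best-known effectors, Cdkn1a, the inhibitor of cyclin-dependent kinases, stood at 45.3, 44.2 and 42.6 against 48.6, 47.1 and 44.4 CPM (log2 fold 0.085, SE 0.042), with overlapping groups. Mdm2 was at 92.9, 93.1 and 97.4 against 98.7, 97.9 and 95.2 CPM, and Ccng1 at 126, 124 and 129 against 135, 131 and 122 CPM. Of the apoptosis genes, Bbc3 was at 25.2, 24.4 and 22.6 against 26.8, 26.7 and 25.1 CPM (log2 fold 0.13, SE 0.046, one of the 13 members with an unadjusted p under 0.05), Bax at 201, 206 and 212 against 209, 212 and 224 CPM, and Pmaip1 at 25.3, 23.2 and 23.3 against 26.3, 24.6 and 23.7 CPM. The groups overlapped for all 3. Rps27l, the target with the highest level, was at 238, 241 and 227 against 239, 250 and 238 CPM.

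**Figure D3:**
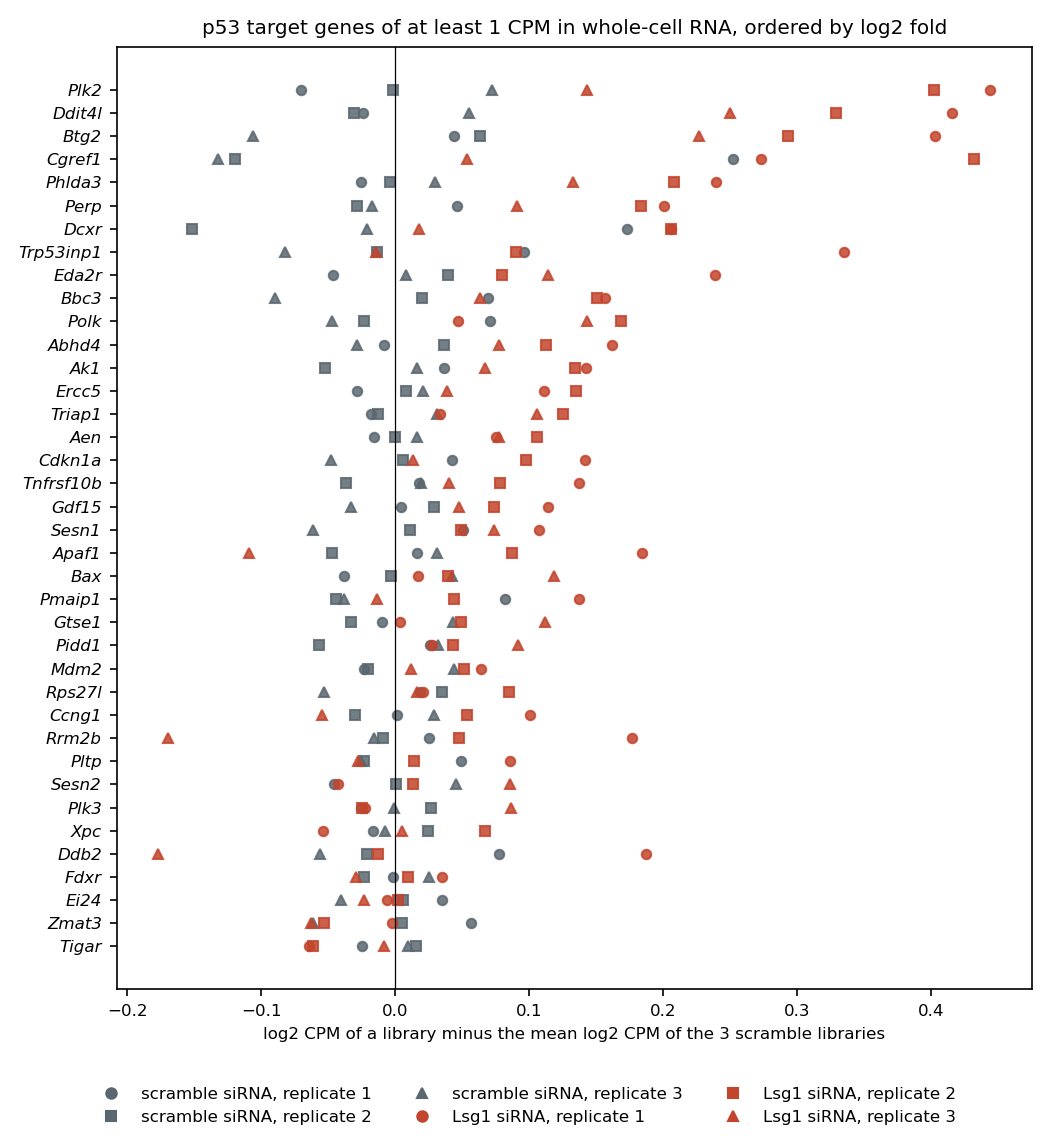
Deviation of each whole-cell library from the mean of the 3 scramble libraries in log2 CPM (horizontal axis) for the 38 p53 targets of at least 1 CPM, ordered by log2 fold (vertical axis); points are libraries. Plk2, Ddit4l, Btg2 and Phlda3 have all 3 Lsg1 libraries right of all 3 scramble libraries, and Lsg1 replicate 3 is the lowest of the 3 in these 4 genes.

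Genes of earlier ribosome assembly and of translation had medians within 0.02 of 0 on the log2 scale. Several changed sign without Lsg1 replicate 3, with scramble replicate 3 kept. Cytosolic ribosomal proteins had 69 of 91 members with a positive log2 fold and a median of 0.012; without replicate 3 it was 44 of 91, with a median of -0.00080. Reads of these genes can be shared with pseudogene copies. Nucleolar assembly factors had 35 of 52 positive (median 0.012) and, without replicate 3, 15 of 52 (median -0.017). Their median deviation from the scramble mean was -0.028, -0.0059 and 0.040 in the 3 scramble libraries and -0.031, 0.011 and 0.040 in the 3 Lsg1 libraries. For cytosolic ribosomal proteins it was -0.019, -0.0057 and 0.021 against -0.0094, 0.019 and 0.021. Replicate 3 was thus the highest with either siRNA. The part of the replicate number in the sign changes was not tested. Pno1, a 40S assembly factor, was the nucleolar member with the smallest p, at 151, 157 and 159 against 161, 164 and 164 CPM. Translation factors and other mRNAs with a terminal oligopyrimidine tract had 22 of 39 positive (0.012; without replicate 3, 16 of 39 and -0.0041), and factors of ribosome quality control and rescue 10 of 21 (-0.0023; without replicate 3, 6 of 21 and -0.011). In that last list, Impact, an inhibitor of the kinase Gcn2, stood at 187, 184 and 186 against 180, 170 and 168 CPM (log2 fold -0.11, SE 0.033), with the groups apart. The noncoding hosts of small nucleolar RNAs had 12 of 18 positive (0.018; without replicate 3, 9 of 18 and -0.00098), among them Gas5 at 159, 154 and 144 against 163, 173 and 152 CPM.

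Genes of mitochondria and protein turnover gave a like pattern. Mitochondrial ribosomal proteins had 57 of 78 positive (median 0.017; without replicate 3, 34 of 78 and -0.0063). Nuclear-encoded subunits of the respiratory chain had 63 of 85 positive (0.018; without replicate 3, 55 of 85 and 0.010), with Ndufa5 at 41.4, 40.2 and 39.1 against 42.2, 43.6 and 44.9 CPM and, in the other direction, Ndufb4 at 34.1, 36.6 and 33.7 against 32.7, 32.0 and 31.8 CPM. The RNAs encoded in mitochondria had 8 of 19 positive (-0.0060). Proteasome subunits had 31 of 43 positive (0.0094; without replicate 3, 19 of 43 and -0.0037), and lysosome and autophagy genes 19 of 33 (0.0030; without replicate 3, 21 of 33 and 0.014), among them the protease Ctsd at 91.2, 90.0 and 95.4 against 101, 101 and 93.0 CPM. Several of these lists hold short transcripts. With the genes of at least 5 CPM split into 5 equal bins by transcript length, the median log2 fold was 0.011, 0.0082, 0.0019, -0.0026 and -0.018 from the shortest to the longest bin, and without replicate 3 it was -0.0038, -0.0042, -0.0086, -0.0094 and -0.020. Of the lists described below, small RNA machinery, nuclear noncoding RNAs and fibroblast or feeder genes had median lengths of 7227, 5555 and 5386 bases. These lie within the longest bin, where 33.4% of genes were positive. The part of transcript length in the list values was not tested.

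Genes of lipid synthesis lay on the negative side by small amounts. Cholesterol synthesis and uptake had 7 of 26 members positive and 19 negative (median -0.042; without replicate 3, 3 of 26 and -0.045), and for 6 of 26 (23.1%) all Lsg1 libraries lay below all scramble libraries, against 5.18% of all genes. Idi1, the isopentenyl diphosphate isomerase, stood at 25.1, 26.7 and 27.4 against 24.6, 23.9 and 25.1 CPM. The lanosterol synthase Lss was at 69.5, 72.0 and 75.3 against 65.5, 69.1 and 68.3 CPM, and the squalene epoxidase Sqle at 98.8, 101 and 105 against 96.5, 97.4 and 97.7 CPM. The regulator Srebf2 was at 280, 277 and 281 against 283, 276 and 282 CPM. In fatty acid synthesis 5 of 13 were positive (-0.019; without replicate 3, 3 of 13 and -0.019), with the desaturase Scd2 at 659, 664 and 665 against 650, 616 and 638 CPM.

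ER chaperones and genes of the unfolded protein response had 9 of 34 positive (-0.026; without replicate 3, 6 of 34 and -0.040). Xbp1, the transcription factor of that response, stood at 68.3, 68.0 and 68.7 against 61.0, 64.9 and 66.5 CPM (log2 fold -0.091, SE 0.036), and the ER stress protein Manf at 89.0, 88.7 and 87.6 against 79.4, 86.5 and 85.6 CPM. Targeting and translocon genes had 23 of 44 positive (0.00062; without replicate 3, 11 of 44 and -0.019), with the signal recognition particle receptor Srpr at 205, 211 and 221 against 190, 192 and 210 CPM. Genes of ER shape and ribosome anchoring had 5 of 19 positive (-0.024), with Lnpk, which stabilises tubule junctions, at 25.3, 24.7 and 24.1 against 22.6, 23.1 and 22.2 CPM. Targets of Atf4 and of amino acid stress, the genes that the integrated stress response induces, had 8 of 39 positive (-0.022; without replicate 3, 7 of 39 and -0.034). Psat1, of serine synthesis, was at 636, 655 and 646 against 626, 628 and 617 CPM.

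Genes of cell identity lay close to their control levels. Pluripotency genes had 7 of 30 positive (median -0.024; without replicate 3, 4 of 30 and -0.028). Prdm14, a repressor that keeps the naive state, stood at 30.6, 30.1 and 31.1 against 28.6, 27.8 and 27.9 CPM (log2 fold -0.12, SE 0.040), with the groups apart, while Dppa5a was at 1891, 1871 and 1897 against 1860, 1897 and 1838 CPM. Nodal and FGF signalling had 14 of 30 positive (-0.035; without replicate 3, 11 of 30 and -0.020). Beside Lefty1, this list held Spry2, a feedback inhibitor of FGF signalling, at 152, 155 and 155 against 165, 163 and 166 CPM (log2 fold 0.095, SE 0.030), and Fgf15 at 6.13, 6.35 and 6.88 against 5.92, 5.53 and 5.75 CPM. Primed and early lineage genes had 10 of 18 positive (0.00028) and primitive endoderm genes 10 of 15 (0.019), which without replicate 3 became 5 of 18 (-0.033) and 7 of 16 (-0.029). Trophoblast genes had 7 of 11 positive (0.037; without replicate 3, 7 of 11 and 0.024) and fibroblast or feeder genes 2 of 10 (-0.051). Gata4, of primitive endoderm, was at 3.00, 2.72 and 2.86 against 2.24, 2.54 and 2.15 CPM.

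The 2-cell-like list, genes of a rare state resembling the early embryo, had 13 of 18 positive and a median of 0.15 (without replicate 3, 14 of 19 and also 0.15). Its levels were low, 22.8 to 23.7 CPM summed with scramble and 24.4 to 26.2 CPM with Lsg1 siRNA, and its genes share reads with near-identical copies. Zscan4d stood at 3.42, 3.04 and 3.44 against 3.85, 3.64 and 3.44 CPM, and Usp17le at 2.51, 1.85 and 2.49 against 2.57, 2.72 and 2.67 CPM. No member passed the test, also at an unadjusted p under 0.05.

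Among cell cycle and stress lists, genes of G1, S phase and replication had 23 of 33 positive (0.022; without replicate 3, 14 of 33 and -0.0022), with the ribonucleotide reductase subunit Rrm2 at 353, 355 and 362 against 376, 370 and 376 CPM. Genes of G2 and mitosis had 18 of 28 positive (0.0070; without replicate 3, 19 of 28 and 0.017), and the senescence list 10 of 17 (0.039), led by Serpine2. Immediate early genes had 15 of 20 positive (0.048; without replicate 3, 15 of 20 and 0.032), among them Junb at 69.9, 69.6 and 68.5 against 73.4, 72.1 and 73.6 CPM and Ier2 at 253, 255 and 251 against 256, 268 and 274 CPM. Heat-shock genes had 5 of 16 positive (-0.0074; without replicate 3, 5 of 16 and -0.017), with the cytosolic chaperone Hsp90ab1 at 5368, 5335 and 5436 against 5624, 5526 and 5533 CPM. Interferon and RNA sensing genes, which transfected RNA can induce, had 6 of 13 positive (-0.0069; without replicate 3, 5 of 13 and -0.028), with Ifitm1 at 74.3, 71.6 and 72.9 against 63.7, 69.6 and 69.5 CPM. Small RNA machinery had 3 of 13 positive (-0.025; without replicate 3, 5 of 13 and -0.019), with Ago2, the slicer of siRNA-guided cleavage, at 268, 273 and 270 against 258, 254 and 256 CPM. None of the members named here passed the edgeR test over all genes.

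**Figure D4:**
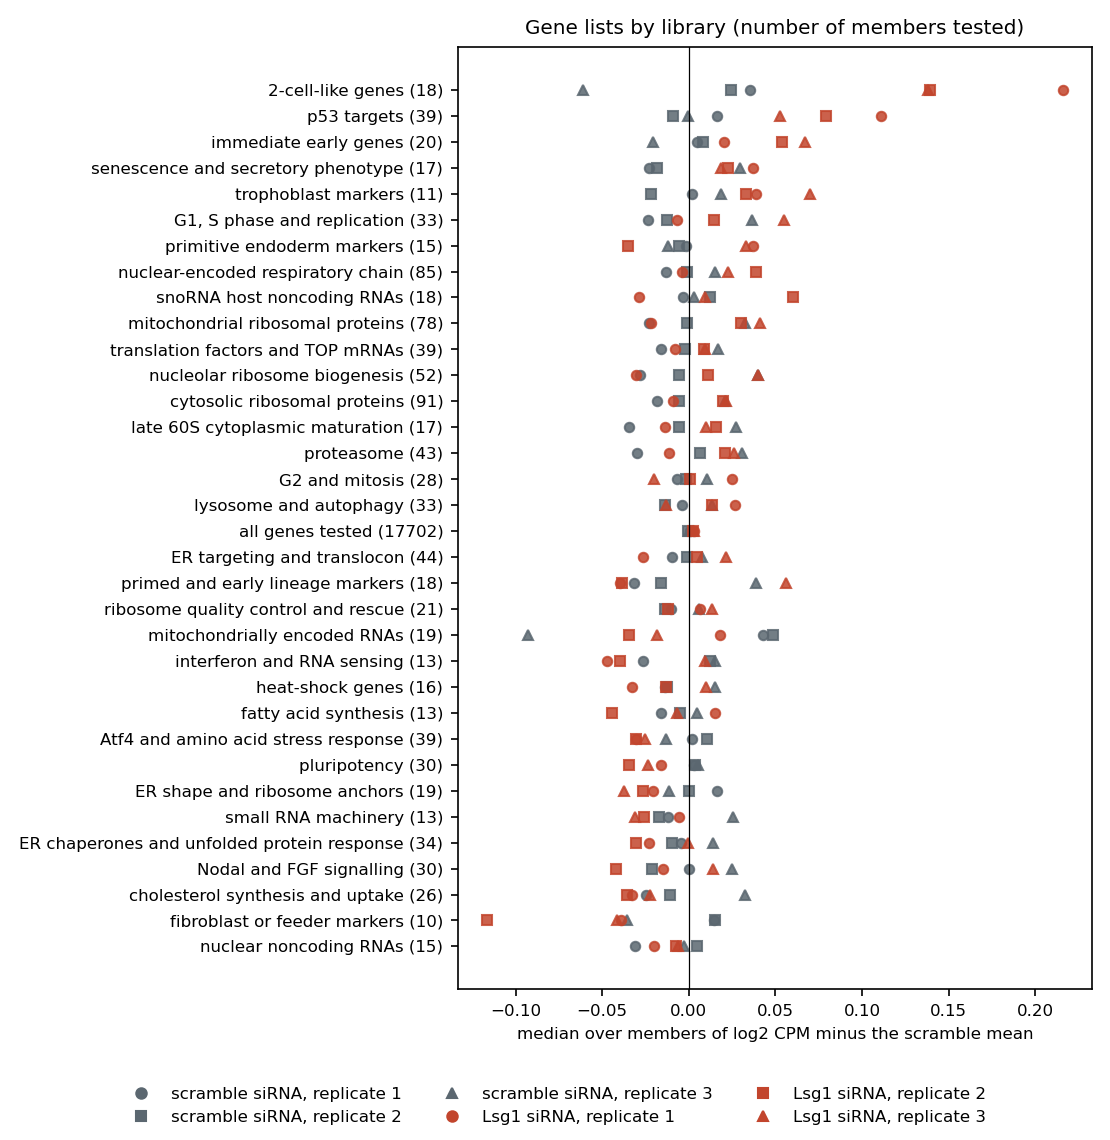
Median over the members of each gene list of log2 CPM minus the scramble mean (horizontal axis), per whole-cell library, for 33 lists and all genes tested, histone lists left out; the number of members tested stands behind each name. The 2-cell-like, p53, immediate early and trophoblast lists have all 3 Lsg1 libraries right of all 3 scramble libraries, and the pluripotency, Atf4, ER shape and fibroblast lists have them left of all 3. The row of all genes tested also has them right of all 3, at 0.0026 to 0.0028 against -0.00036 to 0.00089.

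Among genes whose higher group averaged 5 CPM or more, the largest folds came from Lsg1 replicate 3 alone. Rpph1, the RNA of RNase P, which lacks a poly(A) tail, stood at 0.294, 0.450 and 2.15 CPM with scramble and at 0.331, 0.960 and 18.6 CPM with Lsg1 siRNA. Its log2 fold of 2.69 (SE 1.00) became -0.56 without replicate 3. Lars2, at 236, 424 and 436 against 270, 314 and 1403 CPM, Mir6236, at 59.8, 93.4 and 89.4 against 60.1, 80.9 and 279 CPM, and Gm15564, at 7.86, 11.0 and 10.3 against 6.96, 10.9 and 31.6 CPM, were likewise high in that library. Together with Rpph1 they were the only genes with a name and at least 5 CPM that differed by more than 1.5-fold, and all 4 overlapped between groups. The clustered histone genes, whose mRNAs end in a stem-loop, had 46 of 57 positive and a median of 0.36; without replicate 3 it was 28 of 57 and -0.027. Their median deviation was 0.94 in replicate 3 and between -0.070 and 0.072 in the other 5 libraries, and their summed level was 71.5 CPM at most with Lsg1 siRNA against 40.5 to 44.1 with scramble. Histone genes of other names had 3 of 7 positive (-0.021; without replicate 3, 4 of 7 and 0.0062), and all histone genes together 49 of 64 (0.32; without replicate 3, 32 of 64 and -0.010). The nuclear noncoding RNAs as a list had 5 of 15 positive (-0.052; without replicate 3, 3 of 15 and -0.074), with Malat1 at 375, 380 and 293 against 342, 316 and 294 CPM. How such RNAs came to be more frequent in this library was not tested.

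**Figure D5:**
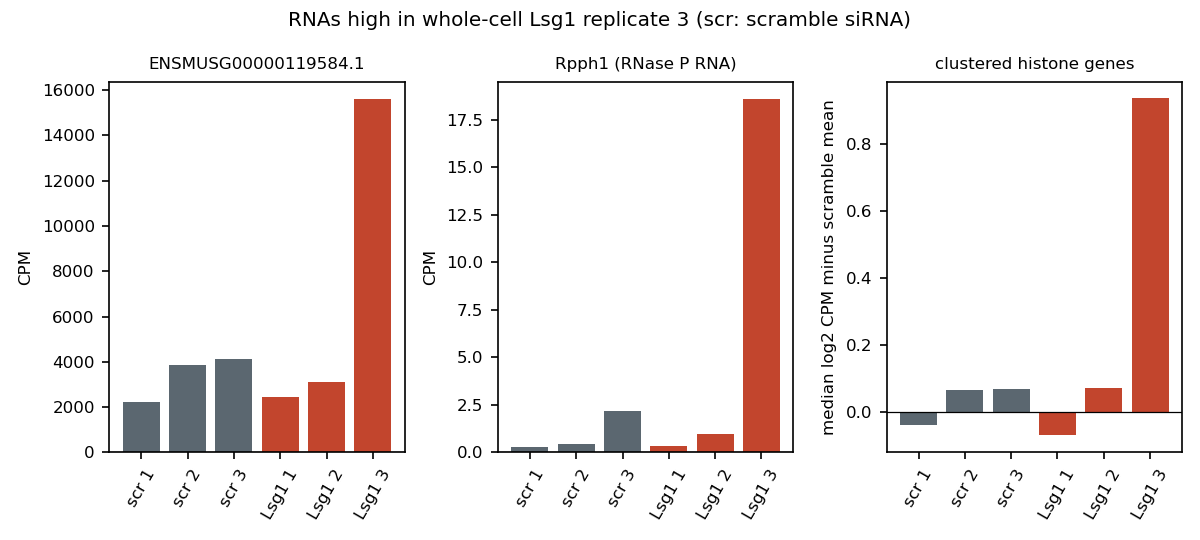
CPM of the unnamed gene ENSMUSG00000119584.1 and of Rpph1, and the median deviation of 57 clustered histone genes from the scramble mean in log2 CPM (vertical axes), in each of the 6 whole-cell libraries (bars). Lsg1 replicate 3 stands at 15604 CPM, 18.6 CPM and 0.94, above the other 5 libraries in each panel.

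The same lysates gave the ER-bound libraries, so the siRNA effect could be set beside that on ER-labelled ribosomes, where edgeR's quasi-likelihood test called 465 genes higher (2.63%) and 245 lower (1.38%). The effect itself differed between the fractions for 4 genes (0.0226%): Lsg1, Nme4 and Vamp3 of those named above, and Lage3, a subunit of the KEOPS complex for tRNA modification, which was chosen after its values were seen. That fit leaves out that both fractions come from the same lysates; with the lysate as a block, 10 genes were called, these 4 among them. Of the other genes named above, Impact (log2 fold -0.11 in whole-cell and -0.38 in ER-bound RNA) then had an edgeR adjusted p of 0.026 in place of 0.053. Rpph1 (2.69 and -4.37), which was high in whole-cell Lsg1 replicate 3, had one of 0.0015 in place of 0.775. ER-bound scramble replicate 3 also stood apart, with ENSMUSG00000119584.1 at 18469 CPM against 1115 to 1324 in the rest of the ER-bound libraries. The part of these libraries in the Rpph1 difference was not tested. Lsg1 had a log2 fold of -1.77 (SE 0.11) on ER-labelled ribosomes, so the whole-cell effect was smaller by 1.22 on the log2 scale (SE 0.15, edgeR adjusted p = 0.0013). Nme4 had a log2 fold of 0.86 there (53.9 ± 3.98 against 97.7 ± 2.42 CPM, SD, n = 3), and the whole-cell minus ER-bound difference was -0.59 (SE 0.061, edgeR adjusted p = 0.00045). Vamp3 had one of -0.59 there, with a difference of 0.39 (SE 0.060, edgeR adjusted p = 0.026). Lage3 stood at 39.0, 39.3 and 39.9 against 40.8, 44.1 and 45.0 CPM in whole-cell RNA (log2 fold 0.14) and had a log2 fold of 0.65 on ER-labelled ribosomes. In all 4 genes the whole-cell effect had the sign of the ER-bound one and was the smaller of both. For Btg2 (0.31 in whole-cell and 0.45 in ER-bound RNA), Serpine2 (0.39 and 0.41) and Plk2 (0.33 and 0.31) the test of the difference gave edgeR adjusted p-values of 0.765, 0.994 and 0.994. For the p53 targets as a list the median was 0.11 on ER-labelled ribosomes, where 8 of 39 were called higher and 0 lower. In whole-cell RNA 0 of all 17702 genes were called. Not all lists kept their sign between the fractions. ER chaperones had a median of -0.026 in whole-cell and 0.058 in ER-bound RNA. For ER shape the medians were -0.024 and 0.050, and for cholesterol synthesis and uptake -0.042 and 0.013. Atf4 targets (-0.022 and -0.072) and pluripotency genes (-0.024 and -0.057) were negative in both.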

How the data were processed

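Poly(A)-selected RNA of mouse embryonic stem cells was sequenced from whole-cell lysate and from purified ER-labelled ribosomes, 3 libraries per siRNA and fraction. The authors deposited raw read counts per gene; per the submitters' processing notes, STAR 2.7.9a, HTSeq 0.11.2, DESeq2 and the build GRCm39 were used. The library kit is directional; no label or header states the strand setting or the annotation release, so reads of overlapping or antisense genes may not be told apart. The 5 summary lines of each table were kept out of library sizes. Gene names came from GENCODE M21 by gene ID and named 52083 of 55416 IDs (94.0%); RefSeq promoters are of build GRCm38.p6.

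Counts were scaled by TMM, filtered with filterByExpr and tested in R 4.3.3 by the quasi-likelihood test of edgeR 4.0.16, with 1 mean per group over all 12 libraries and 8 residual degrees of freedom; Benjamini-Hochberg adjustment ran over all genes tested, and 0.05 was the threshold. CPM are given per library or as mean ± SD, from 3 libraries per group with 38092178 to 56522114 reads in genes. Precision fell at low levels. The median SE of the log2 fold was 0.32 for genes under 1 CPM in the higher group. It was 0.14 from 1 to 5 CPM, 0.069 from 5 to 20 CPM and 0.033 from 100 CPM upward. No 2 whole-cell libraries agreed within sampling noise.

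The rule for the genes named was Lsg1, then the genes called, filled to 20 by the smallest p among genes with a name whose higher group averaged 5 CPM or more, all late 60S factors, and from each other list the 3 smallest p and the highest level, of which the text gives a selection; further p53 targets and the genes of 1.5-fold and more were added. The gene lists, members and rule were chosen with earlier results of these data known. Lists were described by counts and medians, without a set test. The alternatives were DESeq2 1.42.0 and its size factors, library totals, no filter, a stricter filter (2 CPM in 3 libraries), limma-voom (limma 3.58.1), the 6 whole-cell libraries alone, replicate blocks, each whole-cell library left out, both libraries that stand apart left out, and removal of mitochondrial and ribosomal protein genes; the whole-cell fit without Lsg1 replicate 3 was added after seeing the data. Figures were drawn with matplotlib.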

Additional observations from a re-analysis of the deposited data

Results flagged for a closer look

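The effect of Lsg1 siRNA differed between whole-cell and ER-bound RNA by edgeR's interaction test for 3 of the named genes. The whole-cell minus ER-bound difference was 1.22 on the log2 scale for Lsg1 (SE 0.15, edgeR adjusted p = 0.0013), where the ER-bound level was 148 ± 4.46 CPM with scramble and 43.5 ± 8.62 CPM with Lsg1 siRNA (SD, n = 3). For Nme4 it was -0.59 (SE 0.061, edgeR adjusted p = 0.00045). For Vamp3 it was 0.39 (SE 0.060, edgeR adjusted p = 0.026), with 67.0 ± 1.76 against 44.4 ± 1.26 CPM on ER-labelled ribosomes. With the lysate as a block, 10 genes were called in place of 4, and these 3 genes were among them.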

How the results depend on the processing

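No gene was called higher or lower by edgeR with DESeq2 size factors, library totals, the stricter filter, or removal of mitochondrial and ribosomal protein genes. The same held with any 1 of the 6 whole-cell libraries left out of the fit that includes the ER-bound libraries, and for limma-voom (0 to 0 genes in each direction). Single ER-bound libraries were not left out. Without a filter on low counts 24 genes were called higher and 2 lower, and Lsg1 passed (log2 fold -0.55, edgeR adjusted p = 1.7e-33). DESeq2 called 4 higher and 1 lower, and the fit of the whole-cell libraries alone 1 and 1 (Lsg1 -0.55, edgeR adjusted p = 0.0016). Without both libraries that stand apart, Lsg1 replicate 3 and ER-bound scramble replicate 3, it was 3 higher and 1 lower (Lsg1 -0.67, edgeR adjusted p = 0.013), and in the whole-cell libraries without Lsg1 replicate 3, 8 and 4 (Lsg1 -0.66, edgeR adjusted p = 3.5e-09). The cause of these differences was not tested. With single whole-cell libraries left out, the Lsg1 log2 fold lay between -0.67 (without Lsg1 replicate 3) and -0.45 (without Lsg1 replicate 1).

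Same-numbered scramble and Lsg1 libraries deviated together with correlations of 0.037, 0.039 and 0.097, all positive and under 0.1. For libraries of different numbers the correlations lay between -0.10 and 0.066. The labels do not state a pairing, and the main fit did not use the numbers as one. Whether same-numbered libraries share a source was not tested. With the replicate number as a block, 4 genes were called higher and 1 lower over all libraries (Lsg1 -0.55, edgeR adjusted p = 0.0016), and 14 and 8 in the whole-cell libraries alone (Lsg1 -0.55, edgeR adjusted p = 1.1e-09).

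Near-zero log2 folds of late 60S factors, and Rpph1, changed sign in some settings; the cause was not tested. These values include the other end of each range over single libraries left out. Without both libraries that stand apart the values were -0.0094 for Tma16, -0.050 for Dusp12, -0.031 for Eif6, -0.021 for Mrto4, 0.00078 for Heatr3 and -0.56 for Rpph1. Without scramble replicate 1 they were -0.033 for Heatr3, -0.048 for Efl1, -0.015 for Tma16, -0.010 for Eif6, -0.012 for Spata5, -0.017 for Nmd3 and -0.016 for Mrto4. Without scramble replicate 2 they were -0.011 for Dusp12, -0.0019 for Nmd3 and -0.0060 for Mrto4, and without scramble replicate 3, 0.031 for Heatr3, 0.0095 for Efl1, 0.051 for Spata5, 0.044 for Mrto4 and 4.10 for Rpph1. Without Lsg1 replicate 1 Spata5 was at -0.00098, Dusp12 at 0.044 and Eif6 at 0.063, and without Lsg1 replicate 2 Tma16 at -0.0083. Without Lsg1 replicate 3 the values were -0.014 for Tma16, -0.054 for Dusp12, -0.035 for Eif6, -0.025 for Mrto4 and -0.56 for Rpph1. In the whole-cell libraries without Lsg1 replicate 3 they were 0.0018 for Xpo1, -0.0048 for Tma16, -0.045 for Dusp12, -0.027 for Eif6, -0.018 for Mrto4, 0.0040 for Heatr3 and -0.55 for Rpph1.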
